A study of Mus musculus with 8 samples.

Results

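The 8 genes described here encode sensors, adaptors and enzymes of the cytosolic response to bacterial cell wall and other danger signals: Nlrp3, Nlrp12, Nod1, Aim2, Pycard, Casp1, Casp4 and Slc15a3. They were taken by gene symbol from a list chosen with earlier results of these data known. All 8 were among the 18193 genes with values, as 10 of 34945 probe sets that carry a single symbol. Of these genes 7 had 1 probe set and Pycard had 3. Expression was measured on 8 single-channel arrays of CD11b+ cells, with 2 arrays in each of 4 groups. The groups were NOD.Idd3 cells with peptidoglycan (PGN), unstimulated NOD.Idd3 cells, NOD cells with PGN, and unstimulated NOD cells. PGN, the polymer of bacterial cell walls, was given at 5 µg/ml, and unstimulated cells were kept in medium alone. All cells were incubated for 4 h at 37 °C. NOD mice develop autoimmune diabetes spontaneously, and the NOD.Idd3 strain carries another allele at the Idd3 diabetes locus on an otherwise NOD background. CD11b is an integrin subunit of monocytes, macrophages and neutrophils, among other cells. The sources used here do not give the tissue, the age or sex of the mice, or any pooling of animals.

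NOD-like receptors are cytosolic proteins with a nucleotide-binding domain and leucine-rich repeats. Nod1 binds a peptide fragment of peptidoglycan and signals through the kinase Ripk2 to NF-kB. Nlrp3 and the DNA sensor Aim2 instead gather the adaptor ASC, the product of Pycard, into inflammasomes that activate caspase-1. Caspase-1 cleaves the precursors of IL-1β and IL-18 and the pore-forming protein gasdermin D. In macrophages Nlrp3 is known to be raised by Toll-like receptor signals, a step called priming.

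The promoter windows of the genes whose response was largest in either direction are shown, since the members differ in the motifs these windows hold. They are RefSeq windows of assembly GRCm38.p6, from 250 bases before to 50 bases after the annotated start, and 7 of the 8 members had at least 1 window in that table (10 windows in all). Slc15a3 had none. Capitals mark matches on either strand to 4 motifs: an NF-kB motif (GGG and CC with any 5 bases between them), TGANTCA (AP-1), the interferon-stimulated response element or ISRE (GAAA and GAAA with any 2 bases between them) and GAGGAA (PU.1). Overlapping matches run together in 1 stretch of capitals.
Nlrp3 first window, chr11:59542436-59542735, plus strand: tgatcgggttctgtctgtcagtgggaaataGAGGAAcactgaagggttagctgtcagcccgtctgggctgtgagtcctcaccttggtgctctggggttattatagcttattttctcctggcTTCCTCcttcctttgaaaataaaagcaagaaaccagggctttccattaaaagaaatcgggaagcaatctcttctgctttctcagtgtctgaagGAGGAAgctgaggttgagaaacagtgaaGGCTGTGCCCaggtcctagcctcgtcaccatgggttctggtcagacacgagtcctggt
Nlrp3 second window, chr11:59541319-59541618, plus strand: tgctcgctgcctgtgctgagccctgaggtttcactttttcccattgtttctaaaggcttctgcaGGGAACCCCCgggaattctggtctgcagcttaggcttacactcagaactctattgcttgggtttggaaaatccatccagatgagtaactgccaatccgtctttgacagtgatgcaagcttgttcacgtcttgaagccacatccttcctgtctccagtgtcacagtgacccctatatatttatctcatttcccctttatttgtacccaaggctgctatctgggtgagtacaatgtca
Casp4, chr9:5308599-5308898, plus strand: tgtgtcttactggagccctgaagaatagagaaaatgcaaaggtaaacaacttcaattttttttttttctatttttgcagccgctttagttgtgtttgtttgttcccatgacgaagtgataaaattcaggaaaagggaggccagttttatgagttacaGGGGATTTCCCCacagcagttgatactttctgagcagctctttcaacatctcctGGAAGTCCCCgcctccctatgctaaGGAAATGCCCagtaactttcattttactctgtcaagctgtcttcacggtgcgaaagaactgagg
Nlrp12, chr7:3249691-3249990, minus strand: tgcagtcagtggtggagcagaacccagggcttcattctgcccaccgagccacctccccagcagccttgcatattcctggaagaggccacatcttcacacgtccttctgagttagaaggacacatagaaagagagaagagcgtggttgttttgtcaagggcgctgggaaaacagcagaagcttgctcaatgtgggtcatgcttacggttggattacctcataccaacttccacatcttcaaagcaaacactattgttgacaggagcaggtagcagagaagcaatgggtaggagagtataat

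The Casp4 window shown held the NF-kB motif in 3 separate stretches, 1 of which carries overlapping matches on both strands. A second Casp4 window, chr9:5308610-5308909, overlaps the one shown and held the same 3 stretches. Over all 32851 windows of the same length, 50.8% held this motif at least once and 8.43% in at least 3 separate stretches. That count of stretches was chosen after the Casp4 window had been seen. Each Nlrp3 window held the motif in 1 stretch, and the first held GAGGAA at 3 places. Over all windows 28.3% held GAGGAA at least once, and the share with 3 places was not computed. The Nlrp12 window held none of the 4 motifs, and the share of all windows that hold none was not computed. Among the other windows not shown, the first Nod1 window held the NF-kB motif in 2 stretches. The second Nod1 window, like that of Nlrp12, held none of the 4 motifs. The Casp1 window held the NF-kB motif in 1 stretch, and the Pycard and Aim2 windows in none. Of these genes Pycard rose with PGN, while Nod1, Casp1 and Aim2 did not pass. No window of a member held TGANTCA (7.81% of all windows) or the ISRE motif (3.44%). These matches describe letters in a window and not binding.

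With PGN, over both strains together, Nlrp3, Casp4, Slc15a3 and Pycard rose and Nlrp12 fell, while Nod1, Casp1 and Aim2 did not pass. Thus 5 of the 8 genes passed at an adjusted p under 0.05 in limma, where 11.3% of all genes passed. Of the members 4 were higher with PGN and 1 lower, where 4.86% of all genes were higher and 6.40% lower. Because of how the members were chosen, these shares are no test of the list. The median log2 change was 0.49 over the 8 members and 0.05 over all genes. The signs were mixed, so this median describes none of the members.

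**Figure D1:**
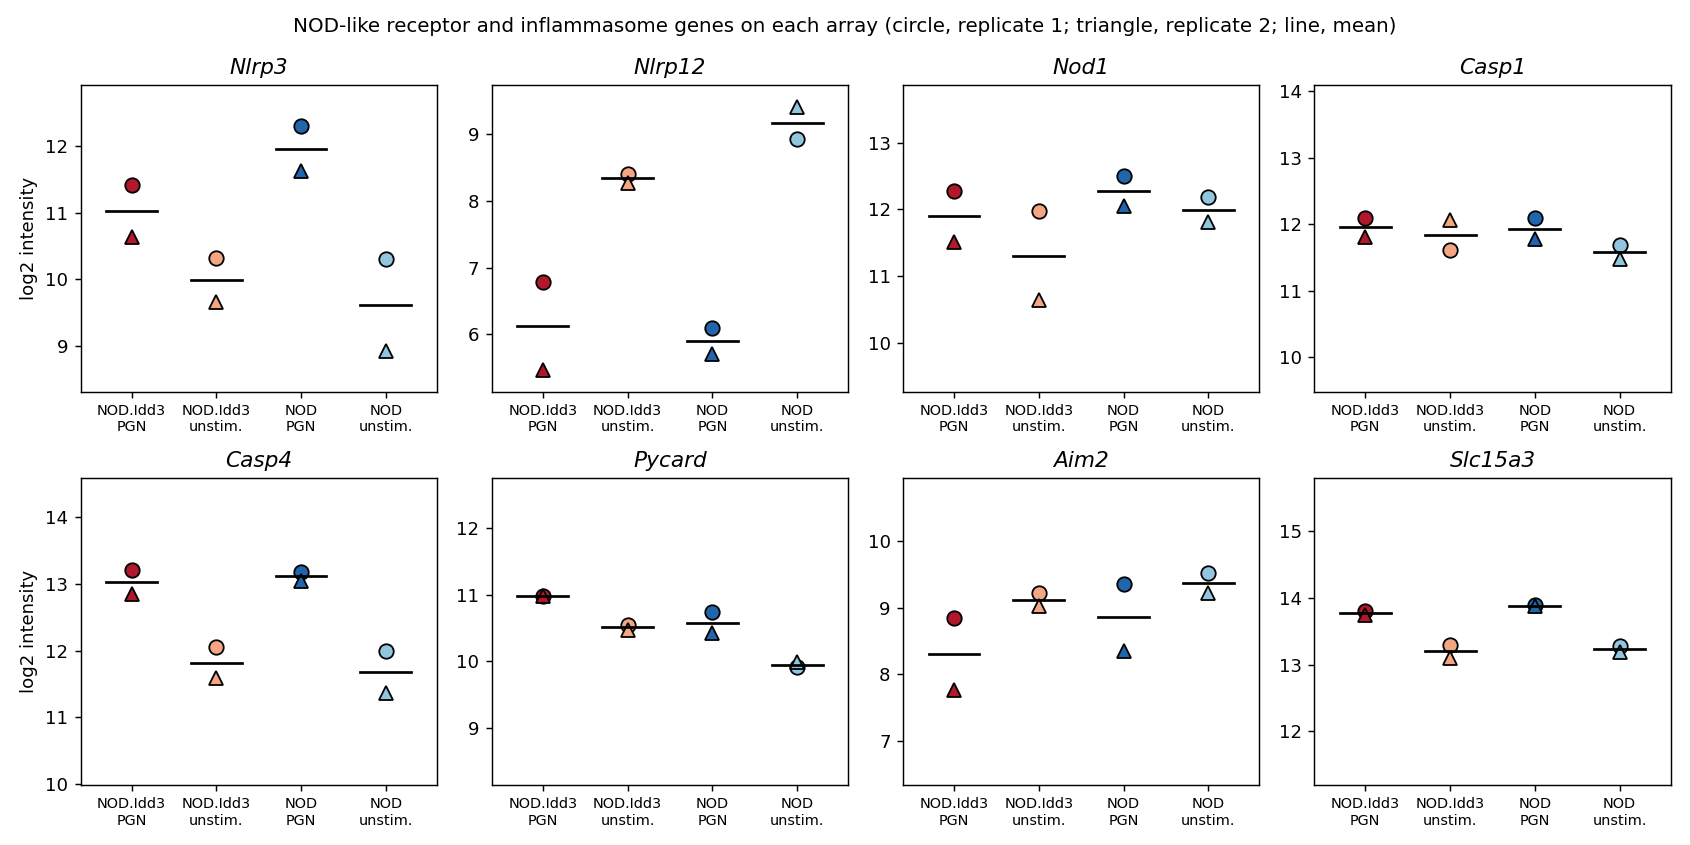
Log2 intensity of each of the 8 genes on each array, with NOD.Idd3 to the left of NOD and PGN to the left of unstimulated cells within a strain. Every panel spans the same log2 range. Circles are replicate 1, triangles replicate 2 and lines group means of 2 arrays, and the separation by PGN is seen for Nlrp3, Nlrp12, Casp4 and Slc15a3 without overlap.

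Nlrp3, the inflammasome sensor, had log2 values of 11.41 and 10.64 in PGN-treated NOD.Idd3 cells, against 10.32 and 9.65 in unstimulated NOD.Idd3 cells. Values in NOD cells were 12.30 and 11.62 with PGN, against 10.30 and 8.93 unstimulated. All 4 PGN arrays lay above all 4 unstimulated arrays, a separation shown in either direction by 18.0% of genes. Averaged over strains Nlrp3 rose by 1.69 ± 0.34 on the log2 scale (SE, 4 arrays per condition, limma adjusted p = 0.0144), a 3.23-fold change with a 95% interval of 0.92 to 2.46 in log2. Without replicate 2 of unstimulated NOD.Idd3 it did not pass (adjusted p = 0.0578).

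Nlrp12, which in mouse cells is known as a brake on NF-kB signalling, moved the other way and further. It had 6.78 and 5.47 in PGN-treated NOD.Idd3 cells, against 8.41 and 8.27 in unstimulated NOD.Idd3 cells. The NOD arrays gave 6.09 and 5.71 with PGN, against 8.94 and 9.41 unstimulated. The groups did not overlap in either strain, and the 2 PGN arrays of NOD.Idd3 lay further apart than those of any other group. Averaged over strains Nlrp12 fell by 2.74 ± 0.28 (limma adjusted p = 0.000817), to a level 6.70-fold lower. This was the 9th largest fall among 18193 genes. The values with PGN lay near the array medians, which ranged from 6.38 to 6.65, and above the 25th percentile, which was 4.28 to 4.57. Nlrp12 passed without each array in turn.

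Nlrp12 is known to be expressed by neutrophils and other myeloid cells, and neutrophil markers also moved with PGN. Of 10 measured neutrophil markers 3 fell (Mmp9, Mmp8 and Cxcr2) and 7 did not pass. Their summed linear intensity was 118475 to 128929 on the PGN arrays, against 130722 to 168676 on the unstimulated arrays. Among the 7 were S100a8 and S100a9, which changed by -0.08 ± 0.15 and -0.10 ± 0.22, and Camp and Lcn2, at -0.12 and 0.07. These 4 genes carry most of the sum. The other 3, Csf3r, Ltf and Ngp, changed by -0.82 ± 0.26, -0.46 ± 0.22 and -0.18 ± 0.15. None of the 6 markers of CD11b and myeloid identity passed, with sums of 57341 to 63593 with PGN against 60418 to 67061 unstimulated. Their changes ran from -0.48 for Itgam, which encodes CD11b, to 0.31 for Cd68. Of 4 monocyte markers 1 passed, Cx3cr1, which fell by 2.66 ± 0.35 (limma adjusted p = 0.00236). F13a1 changed the other way, by 0.72 ± 0.38, and Ccr2 and Fn1 by -0.18 and -0.38, without passing. The monocyte sums were 4191 to 8240 with PGN against 4277 to 8657 unstimulated. Of 5 platelet markers Ppbp and Pf4 fell, and they carry most of the sum (731 to 1331 with PGN against 1838 to 6450 unstimulated). The platelet markers Itga2b, Gp9 and Gp1bb changed by 0.32 ± 0.17, -0.12 ± 0.14 and 0.03 ± 0.14 without passing. Of 5 T cell markers Cd3d alone fell, and it carries most of the sum (1553 to 2466 with PGN against 3576 to 6417 unstimulated). Of 5 dendritic cell markers Ccr7 alone rose, and it carries most of the sum (4200 to 7425 with PGN against 1415 to 2987 unstimulated), while the other 4 changed by -0.13 to 0.14. Of 4 eosinophil markers Siglecf alone passed and fell by 1.16 ± 0.29, while Ccr3, Prg2 and Epx changed by -0.68, 0.25 and 0.32. Of 4 NK cell markers Gzmb alone passed and rose by 1.87 ± 0.39. Klrd1 changed the other way, by -1.66 ± 0.47, without passing (limma adjusted p = 0.0548), and Ncr1 and Eomes changed by 0.02 and -0.02. None of the 9 macrophage and 6 B cell markers passed. With replicate number as a term of the fit, 16.9% of all genes passed. Under that fit Itgam, F13a1, Csf3r, Cd3g, Klrd1 and the B cell markers Cd79a and Cd79b passed as well. Of these F13a1 alone rose. In bulk samples fewer cells of a type and less RNA per cell cannot be told apart, and the part of these shifts in the members' changes was not tested.

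Casp4 encodes the mouse protein also called caspase-11, the cytosolic sensor of lipopolysaccharide that triggers the noncanonical inflammasome. It had 13.21 and 12.86 in PGN-treated NOD.Idd3 cells, against 12.05 and 11.59 in unstimulated NOD.Idd3 cells. In NOD cells it had 13.19 and 13.04 with PGN, against 12.00 and 11.37 unstimulated. Every PGN array was higher than every unstimulated array, and the strains nearly coincided within a condition. Casp4 rose by 1.32 ± 0.20 (limma adjusted p = 0.00383), or 2.50-fold, and passed without each array in turn.

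Casp1 and Casp4 are neighbouring genes in the RefSeq annotation of GRCm38.p6. It encodes caspase-1, the effector of the canonical inflammasomes. Casp1 had 12.10 and 11.81 in PGN-treated NOD.Idd3 cells, against 11.61 and 12.07 in unstimulated NOD.Idd3 cells. Values in NOD cells were 12.09 and 11.77 with PGN, against 11.68 and 11.48 unstimulated. The arrays overlapped in NOD.Idd3 and were separate in NOD. Casp1 changed by 0.23 ± 0.17 without passing (adjusted p = 0.455), with a 95% interval of -0.16 to 0.62. The Casp1 window held 1 match to the NF-kB motif and 1 to GAGGAA.

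Slc15a3 encodes a transporter of the endosomal and lysosomal membrane that carries dipeptides and muramyl dipeptide, a fragment of peptidoglycan. It had 13.80 and 13.74 in PGN-treated NOD.Idd3 cells, against 13.29 and 13.10 in unstimulated NOD.Idd3 cells. The NOD arrays gave 13.89 and 13.87 with PGN, against 13.27 and 13.19 unstimulated. Every PGN array was higher than every unstimulated array, and arrays of a group lay close together. Slc15a3 rose by 0.61 ± 0.14 (limma adjusted p = 0.0221, 1.53-fold). All values lay above the 90th percentile of genes, which was 11.29 to 11.34, and whether the rise is compressed there was not tested. Without 1 array Slc15a3 did not pass in 7 of 8 cases, while the change stayed between 0.57 and 0.66.

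Pycard encodes ASC, the adaptor that links Nlrp3 and Aim2 to caspase-1. It had 10.98 and 10.99 in PGN-treated NOD.Idd3 cells, against 10.54 and 10.48 in unstimulated NOD.Idd3 cells. In NOD cells it had 10.74 and 10.42 with PGN, against 9.91 and 9.99 unstimulated. The groups were separate within each strain but overlapped over both, because the unstimulated NOD.Idd3 arrays lay between the 2 PGN-treated NOD arrays. Pycard rose by 0.55 ± 0.14 (limma adjusted p = 0.0407), and did not pass in 7 of 8 cases when 1 array was left out. The rise rests on 1 of the 3 probe sets. The other two had lower values, between 5.29 and 7.17, and changed by -0.12 ± 0.27 and -0.11 ± 0.15. With the mean of the 3 probe sets the change of Pycard was 0.11, which did not pass (adjusted p = 0.719).

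Nod1, the sensor of peptidoglycan fragments, had 12.27 and 11.51 in PGN-treated NOD.Idd3 cells, against 11.97 and 10.63 in unstimulated NOD.Idd3 cells. Values in NOD cells were 12.50 and 12.05 with PGN, against 12.18 and 11.80 unstimulated. The conditions overlapped in both strains, while within each replicate number the PGN array was the higher one, by 0.30 and 0.88 in NOD.Idd3 and by 0.32 and 0.25 in NOD. Nod1 changed by 0.44 ± 0.31 without passing (adjusted p = 0.428). The fit with replicate number as a term gave an SE of 0.18, and Nod1 did not pass there either (adjusted p = 0.148).

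Aim2, the cytosolic DNA sensor, had 8.85 and 7.76 in PGN-treated NOD.Idd3 cells, against 9.22 and 9.02 in unstimulated NOD.Idd3 cells. The NOD arrays gave 9.35 and 8.36 with PGN, against 9.52 and 9.22 unstimulated. The PGN arrays of a group differed by about 1 log2 unit, and the groups overlapped in NOD only. Aim2 changed by -0.67 ± 0.29 without passing (adjusted p = 0.194). With the replicate block, in which the replicate number is a term of the fit, it passed (adjusted p = 0.0445). With that block 6 members passed, where 16.9% of all genes did.

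Several members also differed between replicate numbers. In each of the 4 groups Nlrp3, Nod1, Casp4, Aim2 and Slc15a3 were higher on replicate 1 than on replicate 2. The gaps were widest for Nlrp3 in unstimulated NOD and for Nod1 in unstimulated NOD.Idd3. Within replicate 1 the PGN effect on Nlrp3 was 1.09 in NOD.Idd3 and 2.00 in NOD, and within replicate 2 it was 0.98 in NOD.Idd3 and 2.69 in NOD. For Casp4 it was 1.16 in NOD.Idd3 and 1.19 in NOD within replicate 1, and 1.26 in NOD.Idd3 and 1.68 in NOD within replicate 2. Nlrp12 changed by -1.63 in NOD.Idd3 and -2.85 in NOD within replicate 1, and by -2.80 in NOD.Idd3 and -3.70 in NOD within replicate 2. Thus the direction was the same within both replicate numbers for these 3 genes.

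**Figure D2:**
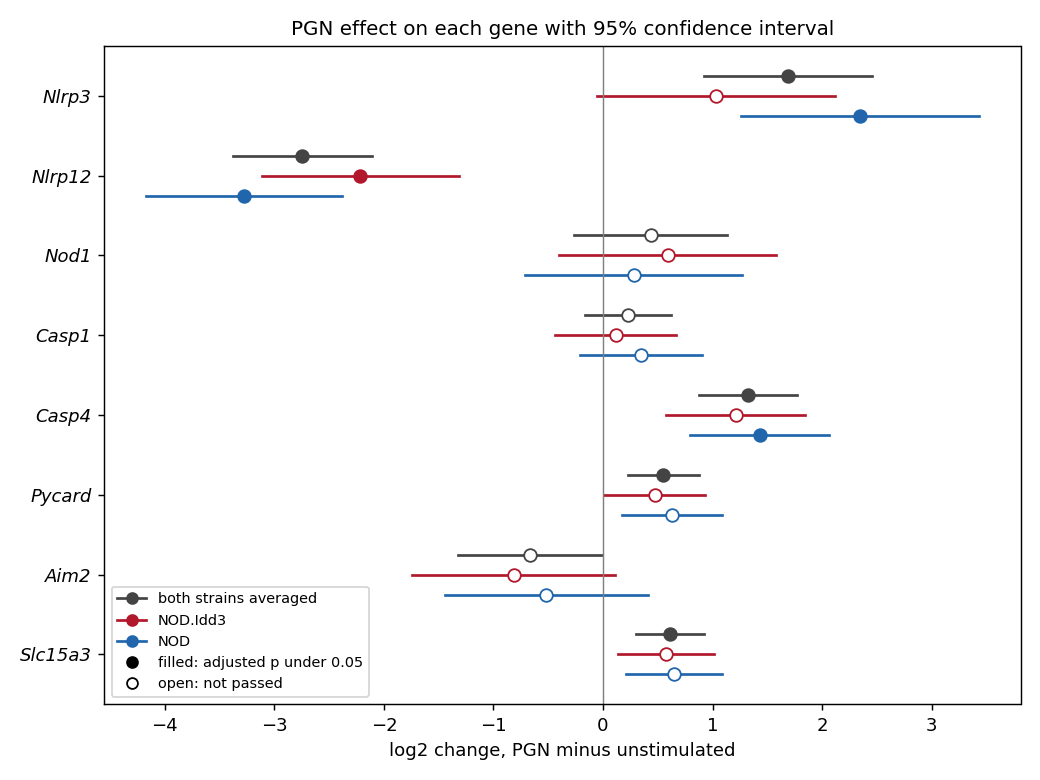
Log2 change with PGN for each of the 8 genes, as the average over strains, in NOD.Idd3 and in NOD, with 95% confidence intervals from limma. Filled points passed at an adjusted p under 0.05, and the intervals of Nod1 and Casp1 span 0 in all 3 comparisons.

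In NOD.Idd3 cells alone 1 member passed, Nlrp12, which fell by 2.21 ± 0.39 (2 arrays per group, limma adjusted p = 0.0230), where 3.14% of all genes passed and 1.25% were lower. Nlrp3 changed by 1.04 ± 0.48 (adjusted p = 0.354, with the block 0.0350) and Casp4 by 1.21 ± 0.28 (0.0567, and 0.0111 with the block). With the block 3 members passed, against 6.63% of all genes. The remaining changes ran from -0.81 ± 0.41 for Aim2 to 0.59 ± 0.43 for Nod1, and none passed. Nlrp12 did not pass without replicate 1 or 2 of unstimulated NOD.Idd3 (adjusted p = 0.12 and 0.15) or without replicate 2 of PGN-treated NOD.Idd3 (0.102).

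In NOD cells 3 members passed, where 3.94% of all genes passed. Of these 2 were higher and 1 lower, where 1.81% of all genes were higher and 2.13% lower. Nlrp12 fell by 3.27 ± 0.39 (2 arrays per group, limma adjusted p = 0.00537), Nlrp3 rose by 2.34 ± 0.48 (0.0330) and Casp4 rose by 1.43 ± 0.28 (0.0281). With the block the count was 3 too, against 8.72% of all genes. Slc15a3 changed by 0.65 ± 0.19 (0.106) and Pycard by 0.63 ± 0.20 (0.131). The calls of all 3 members depended on single arrays. Without replicate 2 of unstimulated NOD or replicate 2 of PGN-treated NOD none of the 3 passed, and without replicate 1 of PGN-treated NOD only Nlrp12 did.

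The arrays of the 2 conditions were separate for 6 of 8 members in NOD.Idd3, where 47.9% of all genes were separate, and for 6 of 8 in NOD, where 45.2% were. In both strains these included Nlrp3, Nlrp12, Casp4, Pycard and Slc15a3.

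The other NOD-like receptor genes show which relatives of the members moved. Of 19 listed, 14 had a probe set with a single symbol, and 2 rose, 4 fell and 8 did not pass for the averaged effect, where 11.3% of all genes passed (median 0.0027, against 0.05 over all genes). The 6 genes that passed became 3 without replicate 2 of unstimulated NOD.Idd3 or replicate 2 of unstimulated NOD, and 4 to 6 without another array. All 3 measured Naip genes, whose products recognise bacterial flagellin and secretion system proteins for the Nlrc4 inflammasome, fell. Naip5 had 7.90 and 7.99 in PGN-treated NOD.Idd3 cells, against 9.23 and 9.77 in unstimulated NOD.Idd3 cells. In NOD cells it had 7.80 and 7.60 with PGN, against 8.63 and 9.24 unstimulated. The PGN arrays of Naip5 all lay below the unstimulated arrays. Naip5 changed by -1.40 ± 0.19 (limma adjusted p = 0.00284), Naip6 by -1.40 ± 0.21 (0.00364) and Naip2 by -1.01 ± 0.21 (0.0152). Naip genes are near-identical copies, so probes may read more than 1 of them, and the 3 falls are not independent.

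Nlrp10, a member of the family without leucine-rich repeats, fell by 1.48 ± 0.18 (limma adjusted p = 0.00164), with 5.97 and 5.76 in PGN-treated NOD.Idd3 cells and 7.26 and 7.31 in unstimulated NOD.Idd3 cells. It had 6.25 and 5.89 in PGN-treated NOD cells and 7.30 and 7.91 in unstimulated NOD cells. The 2 rises were in the family members that drive MHC gene transcription. Ciita, the transactivator of MHC class II genes, rose by 1.42 ± 0.35 (adjusted p = 0.0341), and Nlrc5, that of MHC class I genes, rose by 1.08 ± 0.26 (0.0316). Nlrc5 had 11.89 and 11.20 in PGN-treated NOD.Idd3 cells, against 11.11 and 10.95 in unstimulated NOD.Idd3 cells. Values in NOD cells were 12.39 and 11.62 with PGN, against 10.77 and 9.94 unstimulated, a wider gap than in NOD.Idd3, though the difference between the gaps did not pass (-1.14 ± 0.52, NOD.Idd3 minus NOD, adjusted p = 1.00). Nlrc4 and the other 4 listed receptors were not analysed here, for want of a probe set naming 1 gene.

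Among NOD1 and NOD2 signalling genes, 16 of 20 were measured. For the averaged effect 1 rose, 4 fell and 11 did not pass (median 0.0053), where 11.3% of all genes passed. The 5 that passed became 4 without replicate 1 of unstimulated NOD, 1 without replicate 2 of unstimulated NOD.Idd3, and 2 without any other single array. The falls were Ptpn22, a phosphatase of immune cells, at -1.34 ± 0.16 (limma adjusted p = 0.00147), Card6 at -1.59 ± 0.36 (0.0250), the deubiquitinase Cyld at -0.58 ± 0.13 (0.0244) and Tab1, a partner of the kinase TAK1, at -0.54 ± 0.15 (0.0490). Otulin, which removes linear ubiquitin chains, rose by 0.80 ± 0.18 (0.0258). Ptpn22 had 8.68 and 8.37 in PGN-treated NOD.Idd3 cells, against 9.97 and 9.88 in unstimulated NOD.Idd3 cells. The NOD arrays gave 9.19 and 9.20 with PGN, against 10.25 and 10.68 unstimulated. All 4 PGN arrays of Ptpn22 lay below all unstimulated arrays. Nod2 and Ripk2 were not analysed here for the same reason.

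Of 8 genes for the transport and release of peptidoglycan fragments, 2 fell and 6 did not pass (median -0.23), where 11.3% of all genes passed. Fewer of them passed in every fit without 1 array. Slc46a3, a lysosomal transporter, fell by 1.68 ± 0.20 (limma adjusted p = 0.00134). Slc15a4, the close relative of Slc15a3 in endolysosomes, fell by 0.54 ± 0.13 (0.0363), opposite in sign to Slc15a3. It had 10.11 and 10.04 in PGN-treated NOD.Idd3 cells, against 10.45 and 10.49 in unstimulated NOD.Idd3 cells. In NOD cells it had 10.03 and 9.87 with PGN, against 10.64 and 10.61 unstimulated, so the PGN arrays were the lower ones throughout.

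Among 19 measured partners, regulators and substrates of the inflammasome, 2 rose, none fell and 17 did not pass (median 0.12), a share near the 11.3% of all genes. Leaving out replicate 1 of unstimulated NOD gave 4 genes. The number was 1 without either array of unstimulated NOD.Idd3, replicate 2 of PGN-treated NOD.Idd3 or either array of PGN-treated NOD, and 2 without the remaining arrays. Il1a, which encodes IL-1α, had 9.58 and 8.62 in PGN-treated NOD.Idd3 cells, against 5.97 and 5.25 in unstimulated NOD.Idd3 cells. Values in NOD cells were 9.88 and 10.04 with PGN, against 6.51 and 5.90 unstimulated. It rose by 3.63 ± 0.26 (limma adjusted p = 0.000177). Mndal, of the same family of DNA sensors as Aim2, rose by 1.26 ± 0.31 (0.0347), and genes of that family share sequence, so its probe set may read others. The caspase-1 substrates did not pass, with Il1b at 0.12 ± 0.16 (adjusted p = 0.706), Il18 at 0.24 ± 0.17 (0.426) and Gsdmd at -0.04 ± 0.20 (0.924). Il1b stood between 14.05 and 14.65 on all arrays, above the 90th percentile.

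**Figure D3:**
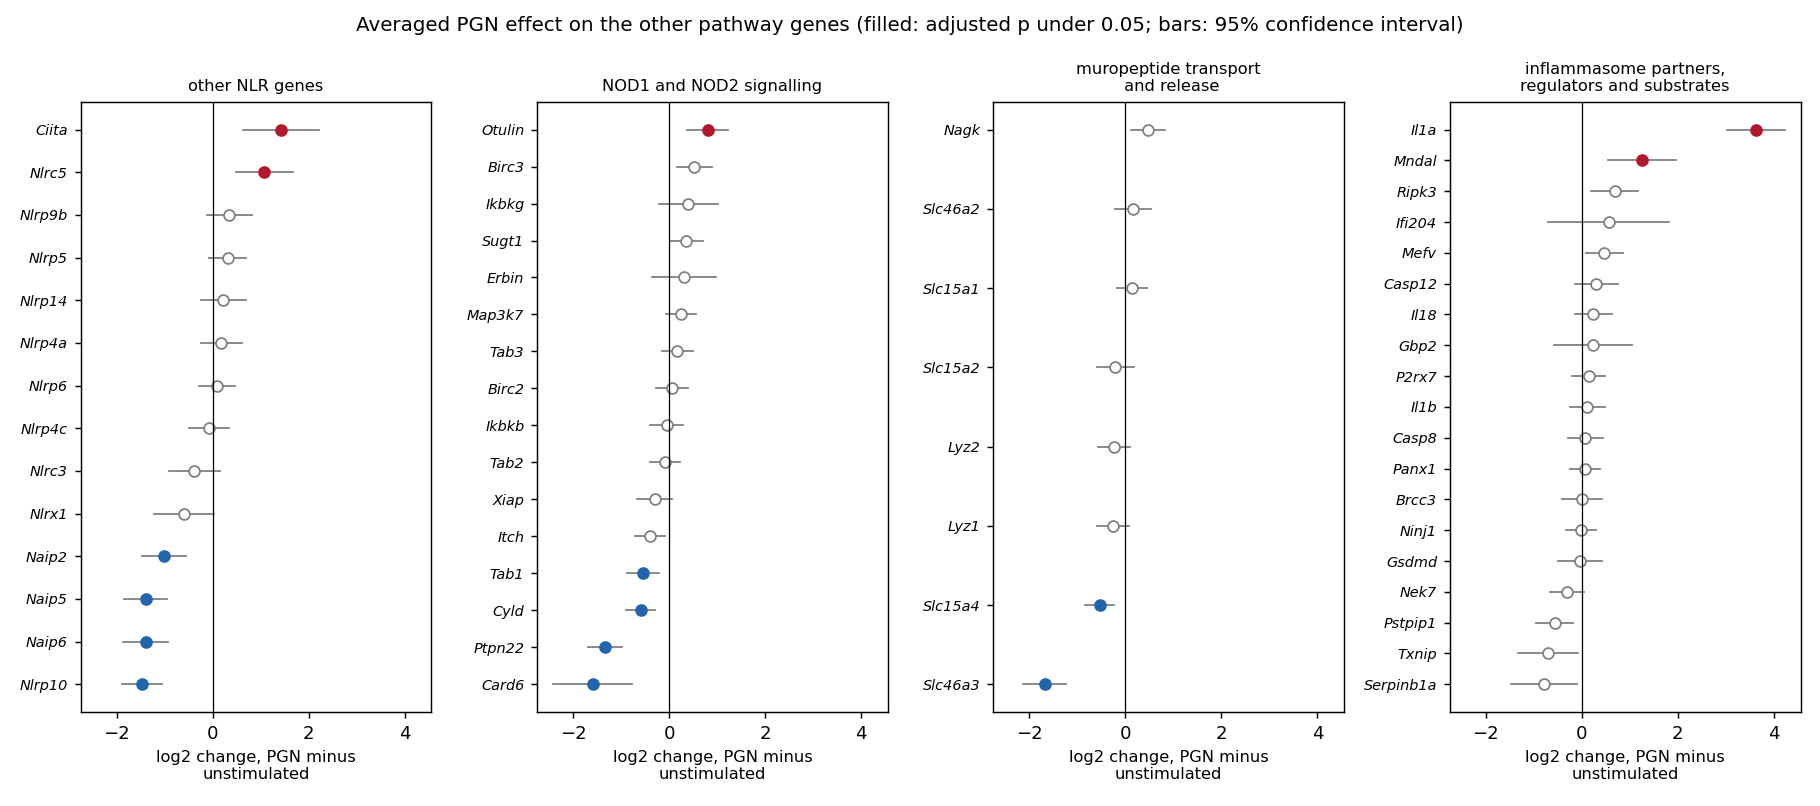
Averaged PGN effect, as log2 change with 95% confidence interval, on the measured genes of 4 pathway lists. Filled points passed at an adjusted p under 0.05, red for a rise and blue for a fall, and the 3 Naip genes and Nlrp10 lie at the lower end of the other NLR genes.

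The genes whose values followed those of Nlrp3 most closely over the 8 arrays, by Pearson correlation among 18192 other genes, were Gas2l3 (0.983), Zc3h12a (0.982), Aff1 (0.981), Pde4b (0.978) and Sod2 (0.978). Zc3h12a encodes regnase-1, a nuclease that degrades cytokine mRNAs, and Sod2 a mitochondrial superoxide dismutase. For Nlrp12 they were Akr1c13 (0.986), Chst15 (0.985), Zbtb20 (0.983), Pbxip1 (0.982) and Ypel3 (0.981). All 5 had negative averaged PGN estimates, of which that of Zbtb20 did not pass (adjusted p = 0.0674), between -2.10 and -0.47. These likenesses describe 8 arrays that share the split by PGN.

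The strains were then compared. No member passed in limma for the difference in PGN effect between strains, and 0 of 18193 genes did (0%, also with the replicate block). At an unadjusted p under 0.05 there were 0 members and 314 genes (1.73%). The largest member difference was that of Nlrp3, at -1.31 ± 0.68 (NOD.Idd3 minus NOD), with a 95% interval of -2.85 to 0.23. Its PGN effect was 1.04 in NOD.Idd3 and 2.34 in NOD. For Nlrp12 the difference was 1.06 ± 0.56, with an interval of -0.21 to 2.33, and its PGN effect was -2.21 in NOD.Idd3 and -3.27 in NOD. The difference was -0.22 ± 0.39 for Casp4 and -0.08 ± 0.27 for Slc15a3.

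**Figure D4:**
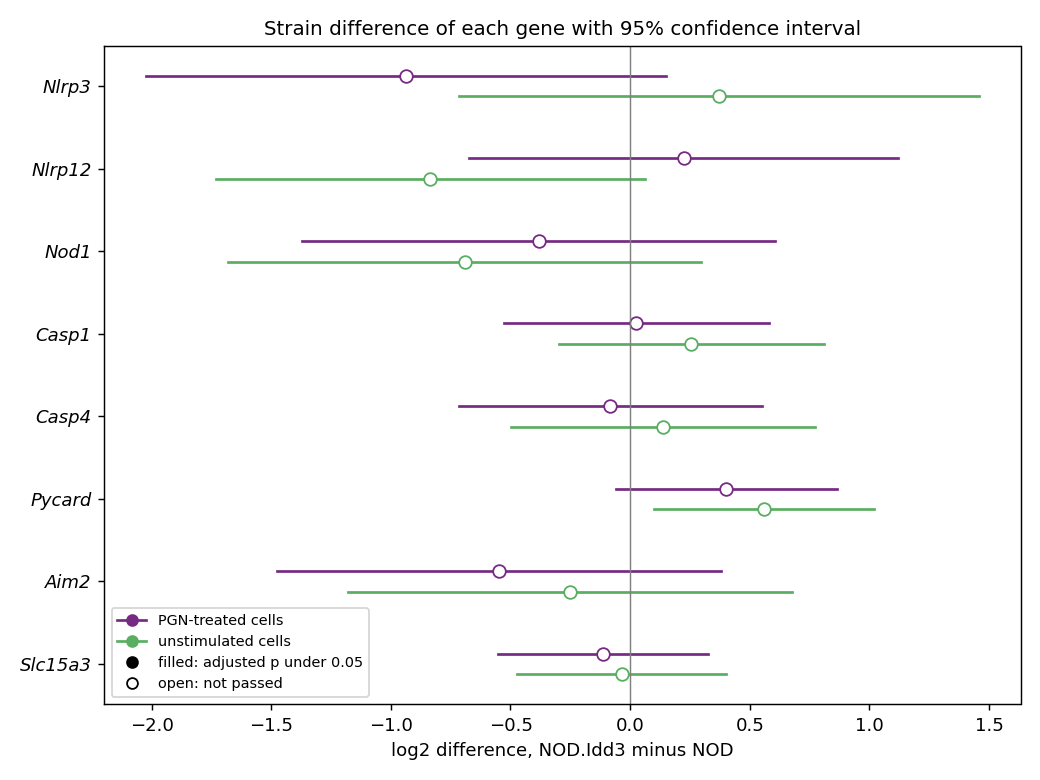
Log2 difference between strains, NOD.Idd3 minus NOD, for each of the 8 genes in PGN-treated and in unstimulated cells, with 95% confidence intervals from limma. All points are open, since none passed. Pycard and Casp1 lie above 0 in both conditions, Casp1 by only 0.03 with PGN.

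For the strain difference averaged over both conditions 0 of the 8 members and 0% of genes passed in limma, or 0 members and 0.148% of genes with the replicate block. At an unadjusted p under 0.05 there were 1 member and 1175 genes (6.46%). The arrays of the strains overlapped for all 8 members, where 2.85% of genes were separate. That member was Pycard, at 0.48 ± 0.14 (NOD.Idd3 minus NOD, unadjusted p = 0.00885, adjusted p = 0.670). It was higher in NOD.Idd3 on both arrays of each condition, by 0.56 ± 0.20 unstimulated and by 0.40 ± 0.20 with PGN. Its other two probe sets had strain differences of the same sign, 0.37 ± 0.27 and 0.35 ± 0.15, and did not pass. Nod1 stood at -0.54 ± 0.31, Aim2 at -0.40 ± 0.29, Nlrp12 at -0.31 ± 0.28 and Nlrp3 at -0.28 ± 0.34. Casp1 (0.14 ± 0.17), Casp4 (0.03 ± 0.20) and Slc15a3 (-0.07 ± 0.14) were nearest to 0.

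In unstimulated cells no member and no other gene passed in limma (0%, also with the block), and Pycard was the 1 member among 611 genes (3.36%) at an unadjusted p under 0.05. Nlrp12 was lower in unstimulated NOD.Idd3 on both arrays, at 8.34 ± 0.10 against 9.18 ± 0.34 in unstimulated NOD (SD, n = 2 each), a difference of -0.84 ± 0.39 (limma adjusted p = 1.00). With PGN no member and no other gene passed in limma either (0%, also with the block), and 0 members and 984 genes (5.41%) had an unadjusted p under 0.05. Nlrp3 stood at 11.02 ± 0.54 in PGN-treated NOD.Idd3 and 11.96 ± 0.48 in PGN-treated NOD (SD, n = 2 each), a difference of -0.94 ± 0.48 (adjusted p = 0.851). The arrays of the strains were separate for 3 members unstimulated (Nlrp12, Pycard and Aim2), where 28.3% of all genes were separate. With PGN they were separate for 3 (Nlrp3, Pycard and Slc15a3), where 34.8% were. The Aim2 arrays barely separated, with 9.216 as the highest value in unstimulated NOD.Idd3 and 9.218 as the lowest in unstimulated NOD. Its unstimulated strain difference was -0.25 ± 0.41.

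A measure of RNA or labelling quality and markers of macrophages and B cells were also compared between the strains. For Gapdh, the control probe set at the 3' end exceeded that at the 5' end by 0.72 to 0.80 in log2 on NOD.Idd3 and by 0.88 to 1.16 on NOD arrays. The same measure for Actb overlapped between the strains, at 0.22 to 0.46 on NOD.Idd3 and 0.43 to 0.58 on NOD arrays. Of 9 macrophage markers 0 passed in limma, or 5 with the replicate block, and their median strain difference was -1.37 (NOD.Idd3 minus NOD). C1qa, C1qb, C1qc, Mrc1 and Cd5l lay between -1.56 and -1.37 and Mertk at -1.13, while the bright markers Csf1r and Adgre1 lay at -0.05 and -0.24. The summed intensities, 20944 to 22669 on NOD.Idd3 and 24768 to 28262 on NOD arrays, are carried mainly by Csf1r and Adgre1. B cell markers had sums of 613 to 1250 on NOD.Idd3 and 1228 to 4274 on NOD arrays, with a median difference of -1.20, and 0 of 6 passed, or 3 with the block (Ms4a1, Blk and Cd79b). The part of these in the members' strain differences was not tested.

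The order of group means from high to low was NOD with PGN, NOD.Idd3 with PGN, NOD.Idd3 unstimulated and NOD unstimulated for Nlrp3 and for Casp4. For Casp4 the strains overlapped within each condition, and for Nlrp3 they overlapped unstimulated. For Slc15a3 the order was NOD with PGN, NOD.Idd3 with PGN, NOD unstimulated and NOD.Idd3 unstimulated, and the unstimulated pair overlapped. For Nlrp12 the order was NOD unstimulated at 9.18, NOD.Idd3 unstimulated at 8.34, NOD.Idd3 with PGN at 6.12 and NOD with PGN at 5.90, and the last pair overlapped.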

How the data were processed

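Expression was measured in 8 CD11b+ samples, 1 array each, in 4 groups of 2 taken from the sample titles. The deposited values are intensities on a linear scale, 1 per probe set, made by the authors with RMA, per the submitters' processing notes. Its version and chip definition are not stated there. The log2 of each value was taken, with no further normalization and no filter on low values.

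Of 45101 probe sets, 34945 had a single gene symbol in the platform annotation, and 34741 of these matched RefSeq (GRCm38.p6) by gene ID. Each gene was its probe set with the highest mean, which left 18193 genes. Contrasts of the 4 group means came from lmFit and eBayes of limma 3.58.1 under R 4.3.3 (4 residual and 4.69 prior degrees of freedom), with p adjusted by Benjamini-Hochberg over all genes, with a threshold of 0.05. Errors beside changes are limma standard errors, and intervals are 95%. The script was tested on simulated data.

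The labels call the arrays biological replicates but do not say whether they came from separate animals, so the p-values cover only the spread among these arrays, which may be technical, and the number of arrays limits the precision. The differences between replicates 1 and 2 correlated across genes between groups (r from 0.17 to 0.42 over 6 pairs of groups). The main fits held no term for replicate number, and the replicate block was run as an alternative. Others were a variance trend, array weights, a second quantile normalization, a term for the RR1 suffix of array names, fits without genes under the 40th percentile, without probe sets ending in _x_at or _s_at, on means of a gene's probe sets, on all probe sets or on only the arrays compared, and leaving out each array. The members and the lists were chosen with earlier results of these data known. Named beside the members were up to 6 genes per list that passed for the averaged PGN effect, by smallest p, a few fixed genes, and the 5 genes most correlated with Nlrp3 and with Nlrp12.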

Additional observations from a re-analysis of the deposited data

How the results depend on the processing

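No called change of a member turned its direction under any alternative, and of 814 comparisons of changes that did not pass, 31 changed sign. For the averaged PGN effect 5 members passed, 4 to 6 under the alternatives on all arrays and 2 to 4 without 1 array. The lowest count, 2, came without replicate 2 of unstimulated NOD.Idd3. In NOD 3 members passed, and 1 did with the suffix RR1 as a term, with array weights and with only the arrays compared, and 0 to 3 without 1 array. In NOD.Idd3 1 member passed, 3 with the replicate block and with the variance trend, and 2 without dim genes, with the mean of probe sets, with further quantile normalization, with array weights and with only the arrays compared. There 0 passed with the suffix RR1 as a term, and 0 to 2 without 1 array. Among single probe sets 5 of 10 passed for the averaged effect, and 2 to 4 without 1 array. Apart from Aim2 (averaged), Nlrp3 and Casp4 (both in NOD.Idd3), the replicate block changed no member's call. No member passed in a strain contrast under any alternative. Over all genes 2049 passed for the averaged effect, 3082 with the replicate block and 1111 to 2139 without 1 array. In NOD 717 genes passed, 1586 with the block, 410 with array weights, 416 with only the arrays compared and 77 to 876 without 1 array. In NOD.Idd3 572 passed, 1207 with the block, 994 with array weights, 235 with the suffix RR1 as a term and 56 to 624 without 1 array. The averaged strain difference went to 27 genes with the block. The cause of these changes was not tested, other than that leaving out an array lowers the number of samples, and the lone array of that group is then assumed to vary like the others.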
